A study of Mus musculus with 8 samples.

Results

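Voltage-gated sodium and calcium channels are assembled from subunits that belong to a few gene families, and the transcripts of these families were followed in ventricles of newborn mice that lacked NAE1 in cardiomyocytes. The members were all protein-coding genes whose symbol begins with Scn, a number and a or b, or with Cacna, Cacnb or Cacng. This gave 42 gene IDs of the 40690 genes in the count table, 14 of sodium and 28 of calcium channels. They carry 40 symbols, since Cacng6 and Cacng7 have 2 IDs each. The rule uses names only and no measured value.

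NAE1CKO ventricles (n = 4) came from mice bearing the NAE1Flox allele and αMHCCre, in which NAE1, the regulatory subunit of the enzyme that activates the ubiquitin-like protein NEDD8, was deleted by Cre under a cardiomyocyte promoter. CTL ventricles (n = 4) came from littermates labelled wild type, whose alleles at the floxed locus and at the Cre transgene are not given in more detail. All mice were on the C57BL/6J background, ventricles were taken at postnatal day 1, and polyadenylated RNA was sequenced with 1 library per heart. Because cells other than cardiomyocytes keep NAE1 in this model, the tissue holds a mixture of deleted and intact cells.

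As background, sodium channels open first in the cardiac action potential and carry its upstroke, and L-type calcium channels then carry the calcium entry that triggers contraction. Each channel has a pore-forming subunit, called α for sodium and α1 for calcium channels. Sodium channel β subunits are small membrane proteins that tune gating and surface expression. Calcium channels other than the T-type add a cytosolic β subunit, which helps bring the pore to the surface, and an extracellular α2δ subunit. The channel of skeletal muscle also holds a γ subunit. T-type calcium channels open at more negative voltages, are abundant in the fetal ventricle and in mature hearts are found mainly in pacemaking and conducting cells.

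Depth and the targeted gene were checked first. Libraries held 16304420 to 18593509 counts in NAE1CKO and 13932821 to 18056322 in CTL, and the members took 0.130% to 0.148% of them in NAE1CKO and 0.150% to 0.166% in CTL. Levels are given as CPM (counts of a gene per fixed number of counts in the library) after TMM scaling, which corrects for a few abundant transcripts taking up reads. Among the NAE1CKO hearts, named here by their titles, Nae1 had 13.2 CPM in KO-443-3, 12.9 CPM in KO-443-5, 10.6 CPM in KO-453-6 and 11.2 CPM in KO-453-7. Among the CTL hearts it had 23.3 CPM in WT-443-7, 22.3 CPM in WT-443-8, 24.1 CPM in WT-453-3 and 23.7 CPM in WT-453-5. Values in the text follow this order of libraries throughout. The groups did not overlap for Nae1, and the edgeR log2 fold change was −0.96 (SE 0.0869, adjusted p = 7.18e-06). Library WT-453-5 stood apart in Gm42418, a transcript that overlaps ribosomal RNA, with 12.8% of its counts against 3.09% to 4.62% in the other 7 libraries. Of the cardiomyocyte markers, 7 of 10 were lower in NAE1CKO and 0 were higher, and their summed level was 51047 to 55052 CPM in NAE1CKO and 66157 to 79568 CPM in CTL. The largest part of this sum was Myh6, with a mean of 17016 CPM in NAE1CKO and 26420 CPM in CTL. In these bulk samples, fewer cells of a type and less RNA per cell cannot be told apart.

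Of the 42 members, 36 had a count and 21 had enough counts to be tested among 13622 genes with edgeR's quasi-likelihood test, where a call is a Benjamini-Hochberg adjusted p under 0.05 over all these genes. NAE1CKO ventricles had less RNA of the L-type calcium channel pore Cacna1c, of the T-type pores Cacna1g and Cacna1h, and of the skeletal muscle sodium channel pore Scn4a. Transcripts of the calcium channel β subunits Cacnb1 and Cacnb3 were higher. In all, 3 members were higher (14.3% of those tested, against 18.6% of all genes tested), 6 were lower (28.6%, against 17.6%), and 12 were not called. In either direction 42.9% of the tested members were called, against 36.3% of all genes. Their median log2 fold change was −0.05, against −0.000742 over all genes tested. With a fold above 1.5 required as well, 1 member was higher (4.76%, against 7.31% of all genes) and 3 were lower (14.3%, against 5.56%). The NAE1CKO and CTL libraries did not overlap in CPM for 6 members, 2 higher and 4 lower, or 28.6% of those tested against 36.5% of all genes.

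**Figure D1:**
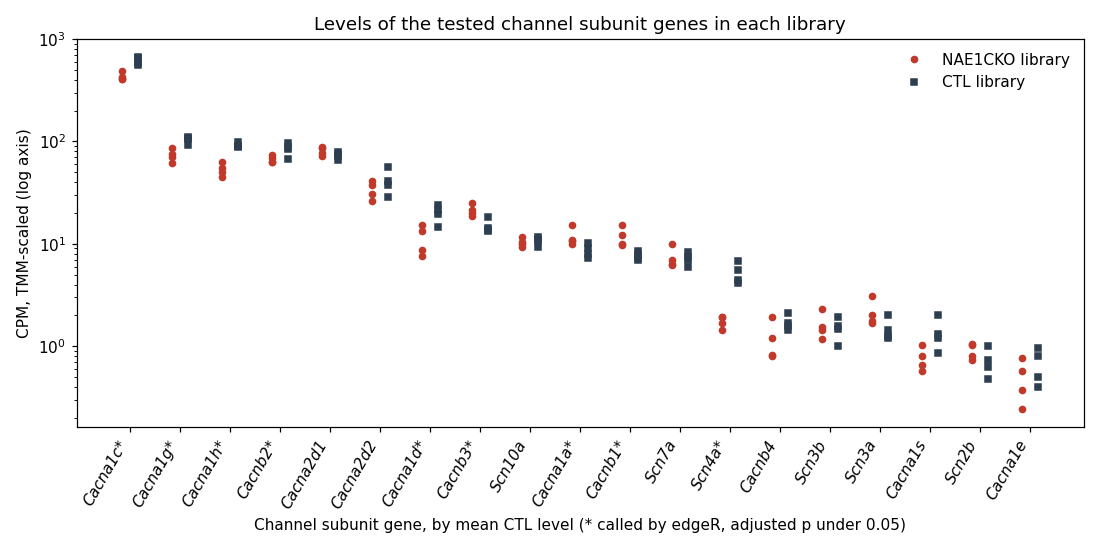
TMM-scaled CPM (log axis) of 19 of the tested members in each of 4 NAE1CKO libraries (red circles) and 4 CTL libraries (dark squares), ordered by their mean CTL level, with an asterisk on the called genes. Cacna1c lies at 404 to 488 CPM in NAE1CKO and 556 to 675 CPM in CTL with no overlap.

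Among the sodium channel pores, Scn4a, that of skeletal muscle, showed the largest difference among the tested members. It had 1.94, 1.94, 1.68 and 1.43 CPM in NAE1CKO libraries, against 5.54, 4.43, 6.79 and 4.09 CPM in CTL libraries. Every NAE1CKO library lay below every CTL library, and Scn4a fell with a log2 fold change of −1.58 (SE 0.197, adjusted p = 7.79e-05 by edgeR). Its counts were low, with 127 in NAE1CKO and 331 in CTL over 4 libraries each. Skeletal muscle markers did not move together. Of the 5 that could be tested, Myh3 and Myh8, myosins of embryonic and perinatal muscle, were higher in NAE1CKO, Tnni2, the fast troponin I, was lower, and 2 were not called. The whole list of 12 summed to 13.9 to 17.2 CPM in NAE1CKO and 7.47 to 9.07 CPM in CTL. Among the genes too low to test, Myh1 had 38 counts in NAE1CKO and 16 in CTL, and Actn3 had 28 and 8. Myog had 6 and 7 counts, Myh2 had 4 and 1, and Myh4, Myod1 and Pax7 were at 0 in all 8 libraries. The part of skeletal muscle cells in the difference of Scn4a was not tested.

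Further sodium channel pores were not called. Scn10a, first known from sensory neurons, had 10.3 ± 0.933 CPM in NAE1CKO and 10.7 ± 1.07 CPM in CTL, with a log2 fold change of −0.05. Scn7a, an atypical family member that responds to sodium concentration, had 7.33 ± 1.73 CPM in NAE1CKO and 7.11 ± 0.956 CPM in CTL, with a log2 fold change of 0.04. For Scn3a, a neuronal pore, the level was 2.12 ± 0.657 CPM in NAE1CKO and 1.48 ± 0.382 CPM in CTL (SD, n = 4 each, as for the others). Its log2 fold change was 0.52 (SE 0.26), with overlapping groups and an adjusted p of 0.138 by edgeR.

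**Figure D2:**
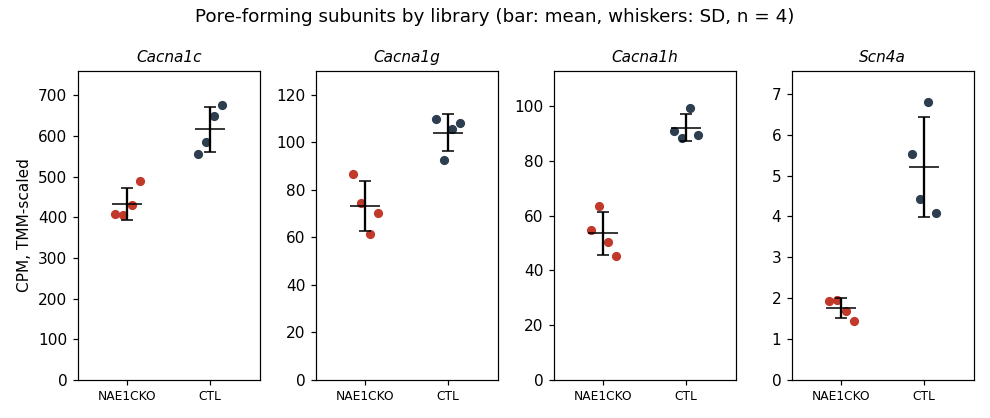
TMM-scaled CPM of 4 pore-forming subunits in each NAE1CKO library (red, left) and each CTL library (dark, right), with the mean (bar) and SD (whiskers, n = 4), on axes that start at 0. The 3 calcium channel pores and Scn4a do not overlap between the groups, and Cacna1h lies at 45.3 to 63.6 CPM in NAE1CKO and 88.3 to 99.4 CPM in CTL.

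Among the calcium channel pores, the L-type genes as a class summed to 413 to 504 CPM in NAE1CKO and 577 to 701 CPM in CTL. Nearly all of this was Cacna1c, the L-type pore of working cardiomyocytes. Its level was 409, 404, 430 and 488 CPM in NAE1CKO libraries, against 556, 585, 648 and 675 CPM in CTL libraries. The highest NAE1CKO library was below the lowest CTL library, and Cacna1c fell with a log2 fold change of −0.51 (SE 0.0775, adjusted p = 0.000329 by edgeR). Per kilobase, Cacna1c had 20.4 CPM per kb in NAE1CKO and 29.1 CPM per kb in CTL. Of the 10 cardiomyocyte markers, 7 were lower like Cacna1c, and Tnnt2 (log2 fold change −0.11), Actn2 (0.09) and Ttn (−0.35) were not called. Fibroblast markers were lower for 5 of 8 and higher for 0, and pericyte markers were lower for 2 and higher for 1 of 8. The part of the number of cardiomyocytes or of other cells in the decrease of Cacna1c was not tested.

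Cacna1d, the L-type pore of pacemaking and atrial cells, had 13.4, 7.61, 8.60 and 15.3 CPM in NAE1CKO libraries, against 19.7, 14.6, 21.2 and 24.0 CPM in CTL libraries. The groups touched, since KO-453-7 was above WT-443-8. The log2 fold change was −0.82 (SE 0.238, adjusted p = 0.0248 by edgeR). This call was lost without KO-453-6 (adjusted p = 0.0633), without WT-443-7 (0.0559), without WT-453-3 (0.0634) and without WT-453-5 (0.0616), and with no filter on low counts (0.096). Exons of Cacna1d overlap those of Chdh on the other strand by 589 bases, and the strand setting of the counts is not given in the sources used here. Cacna1s, the L-type pore of skeletal muscle, had 0.767 ± 0.195 CPM in NAE1CKO and 1.34 ± 0.482 CPM in CTL (SD, n = 4 each) and a log2 fold change of −0.78 (SE 0.303), with an adjusted p of 0.0616 by edgeR. It passed the threshold without KO-453-6 (0.0476), without WT-443-8 (0.0315) and with the title number as a block (0.0481), and 1309 bases of its exons overlap Gm37759.

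Both measurable T-type pores were lower in NAE1CKO. Cacna1h had 54.8, 63.6, 50.3 and 45.3 CPM in NAE1CKO libraries, against 91.0, 88.3, 99.4 and 89.5 CPM in CTL libraries. The gap between the groups was wider than either range, and Cacna1h fell with a log2 fold change of −0.78 (SE 0.0907, adjusted p = 5.24e-05 by edgeR). Its exons share 158 bases with Tpsg1 on the other strand. Cacna1g, the other T-type pore of the heart, had 86.7, 74.6, 61.6 and 70.1 CPM in NAE1CKO libraries, against 110, 92.7, 106 and 108 CPM in CTL libraries. No library crossed, and the log2 fold change was −0.51 (SE 0.0945, adjusted p = 0.00151 by edgeR). T-type genes took 21.8% ± 3.17 of the counts of calcium channel pores in NAE1CKO and 23.3% ± 1.53 in CTL (SD, n = 4 each), with overlap, so the balance of T-type to the other pores did not separate the groups. Within the T-type genes, Cacna1g made up 57.7% ± 3.77 of the counts in NAE1CKO and 53.0% ± 1.91 in CTL, again with overlap.

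Conduction system markers were divided. Of 10 tested from a list of 12, 2 were higher in NAE1CKO, among them the pacemaker channel Hcn4, 4 (Tbx3, Cntn2, Etv1 and Cpne5) were lower, and 4 were not called. The list summed to 279 to 374 CPM in NAE1CKO and 230 to 271 CPM in CTL, and none of its genes was at 0 in all libraries. Atrial myocyte markers, a list of 8 that were all tested, were divided as well. Of these, 4 (Nppa, Myl4, Nr2f2 and Fam189a2) were higher in NAE1CKO, Stard10 was lower and 3 were not called. The list summed to 2014 to 3247 CPM in NAE1CKO and 973 to 1171 CPM in CTL, with none at 0. Most of the sum was Nppa (mean 1355 CPM in NAE1CKO and 372 CPM in CTL) and Myl4 (859 and 258 CPM). The means of Myl7, Sln, Bmp10 and Stard10 were lower in NAE1CKO than in CTL. Of the atrial markers not called, Sln had 9.15, 0.997, 10.2 and 15.05 CPM in NAE1CKO libraries, against 18.9, 7.38, 15.1 and 13.6 CPM in CTL libraries. For Myl7, the atrial myosin light chain, the values were 214, 62.0, 222 and 227 CPM in NAE1CKO libraries, against 217, 144, 234 and 245 CPM in CTL libraries. Sln, Myl7 and Cacna1d were each lowest in KO-443-5 among the NAE1CKO libraries and in WT-443-8 among the CTL libraries, a pattern noticed in the values. Cacna1d was also low in KO-453-6, at 8.60 CPM, where Sln and Myl7 were not. Of the rest of the atrial list, Myl4 shared the pattern by small margins. It had 759 CPM in KO-443-5 against 764 CPM in KO-453-6, and 240.5 CPM in WT-443-8 against 241.2 CPM in WT-453-5. Nppa, Bmp10, Nr2f2, Stard10 and Fam189a2 did not share it. Among the NAE1CKO libraries Bmp10 was highest in KO-443-5, at 10.8 CPM. The part of conducting or atrial cells in the levels of Cacna1d, Cacna1g and Cacna1h was not tested.

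The neuronal types of calcium channel pore were present at low levels. Cacna1a, the P/Q-type pore of nerve terminals, had 10.9, 15.3, 10.6 and 9.92 CPM in NAE1CKO libraries, against 10.1, 9.04, 7.87 and 7.31 CPM in CTL libraries. The groups overlapped, KO-443-5 was the highest library, and the log2 fold change was 0.44 (SE 0.152, adjusted p = 0.038 by edgeR). Without KO-443-5 it was 0.28 and the adjusted p was 0.114. The call was also lost without KO-443-3 (0.0551), WT-443-8 (0.0618), WT-453-3 (0.0992) or WT-453-5 (0.0988), and its exons overlap Gm16183 on the other strand by 435 bases. Cacna1e, the R-type pore, had 0.492 ± 0.232 CPM in NAE1CKO and 0.667 ± 0.259 CPM in CTL (SD, n = 4 each) and was not called. Of 12 neuron markers, 5 could be tested. Tubb3 and Uchl1 were higher in NAE1CKO, Stmn2 and Dbh were lower, and Elavl4 was not called. The list of 12 summed to 130 to 193 CPM in NAE1CKO and 37.0 to 44.1 CPM in CTL, most of it Uchl1, with none at 0 in all libraries, and the part of neurons in the difference of Cacna1a was not tested.

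The β subunits of calcium channels changed in opposite directions. Cacnb2, the main β subunit of cardiomyocytes, had 63.1, 63.2, 68.9 and 74.3 CPM in NAE1CKO libraries, against 83.9, 66.9, 96.6 and 87.3 CPM in CTL libraries. WT-443-8 lay within the NAE1CKO range, and the log2 fold change was −0.31 (SE 0.101, adjusted p = 0.0308 by edgeR). This call was lost when libraries were scaled by size alone (log2 fold change −0.23, adjusted p = 0.0851). Leaving out a NAE1CKO library also lost it for KO-443-3 (adjusted p = 0.0837), for KO-443-5 (0.0797) and for KO-453-6 (0.0559). The same held for CTL libraries WT-443-7 (0.0624), then WT-453-3 (0.0842) and also WT-453-5 (0.0747). Exons of Cacnb2 overlap Gm10849, Gm13269 and Gm10848 on the other strand by 968 bases in all.

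Cacnb3, known from smooth muscle and neurons, had 21.4, 18.5, 20.1 and 25.2 CPM in NAE1CKO libraries, against 13.5, 13.7, 18.2 and 14.2 CPM in CTL libraries. It was higher in each NAE1CKO library than in any CTL library, with a log2 fold change of 0.51 (SE 0.12, adjusted p = 0.00554 by edgeR). Cacnb1, the β subunit of the skeletal muscle channel, had 12.1, 9.97, 9.74 and 15.3 CPM in NAE1CKO libraries, against 8.56, 7.99, 7.02 and 7.23 CPM in CTL libraries. It too rose with no overlap, with a log2 fold change of 0.61 (SE 0.148, adjusted p = 0.00659 by edgeR), and 80 bases of its exons overlap Gm11629. Cacnb4, a brain β subunit, had 1.19 ± 0.53 CPM in NAE1CKO and 1.71 ± 0.277 CPM in CTL (SD, n = 4 each). Its log2 fold change was −0.51 and the adjusted p 0.19 by edgeR, but without KO-443-5 they were −0.86 and 0.0238, and its exons overlap A430018G15Rik on the other strand. Markers of smooth muscle, where Cacnb3 is known, were higher for 4 of 8 (Acta2, Cnn1, Tagln and Des). A further 2 of 8 (Myh11 and Smtn) were lower. The list summed to 6569 to 7570 CPM in NAE1CKO and 3215 to 3511 CPM in CTL, with none at 0. The largest part of this sum was Acta2, with a mean of 4901 CPM in NAE1CKO and 1725 CPM in CTL. Next came Des, with a mean of 1818 CPM in NAE1CKO and 1401 CPM in CTL. Myh11 had a mean of 25.6 CPM in NAE1CKO and 31.7 CPM in CTL. Macrophage markers were higher for 7 of 8 and lower for 0, with sums of 106 to 146 CPM in NAE1CKO and 70.7 to 78.0 CPM in CTL. The part of these cells in the levels of Cacnb1 and Cacnb3 was not tested.

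The opposite changes altered the make-up of the β subunit transcripts. The share of Cacnb2 in the counts of all β subunits was 64.8%, 67.5%, 68.9% and 64.3% in NAE1CKO libraries, against 77.9%, 73.8%, 78.3% and 79.2% in CTL libraries. Cacnb3 took 22.0%, 19.8%, 20.2% and 21.8% in NAE1CKO libraries, against 12.5%, 15.1%, 14.8% and 12.9% in CTL libraries. For Cacnb1 the share was 11.5% ± 1.58 in NAE1CKO and 7.25% ± 1.4 in CTL (SD, n = 4 each). None of these 3 shares overlapped between the groups. Counts were also divided by the length of all annotated exons of a gene, 13228 bases for Cacnb2 and 4010 for Cacnb3. The transcripts in use may be shorter and are not known, so the ranking of these genes depends on that length. Per kilobase, neither Cacnb3 nor Cacnb2 led in all 4 NAE1CKO libraries (40.4% ± 1.05 and 38.9% ± 2.47 of β subunit counts per kilobase). In CTL Cacnb2 led (31.1% ± 2.34 for Cacnb3 and 52.8% ± 3.14 for Cacnb2). The ratio of Cacnb3 to Cacnb2 per kilobase was 1.12, 0.965, 0.965 and 1.12 in NAE1CKO libraries, against 0.530, 0.676, 0.622 and 0.537 in CTL libraries. The sum of the 4 β subunits itself overlapped, at 93.6 to 116 CPM in NAE1CKO and 90.7 to 123 CPM in CTL.

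**Figure D3:**
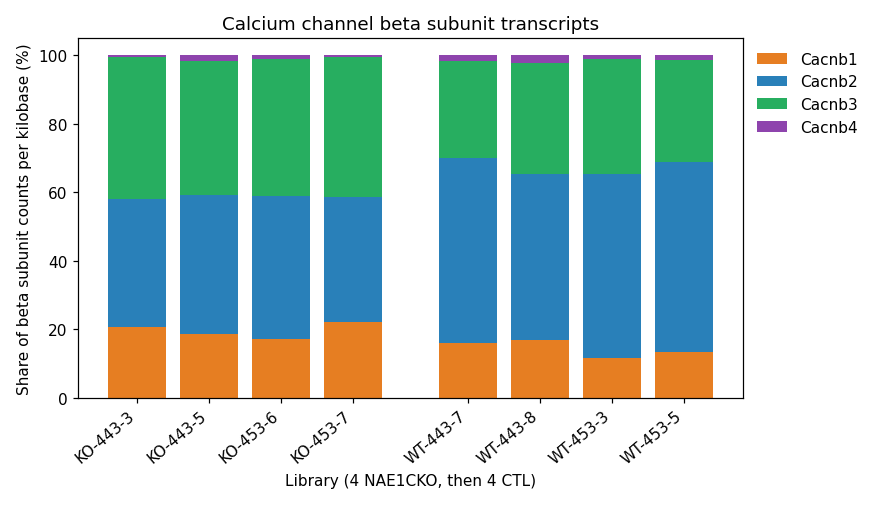
Share of each β subunit gene in the β subunit counts per kilobase of exon (percent, stacked to 100%) in each of 4 NAE1CKO libraries (left) and 4 CTL libraries (right). Cacnb2 (blue) takes 36.6% to 41.6% in NAE1CKO libraries and 48.3% to 55.5% in CTL libraries, and Cacnb3 (green) takes 39.0% to 41.5% in NAE1CKO libraries and 28.5% to 33.5% in CTL libraries.

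Promoter sequence is shown for Cacnb1, Cacnb2 and Cacnb3 because these genes differ in direction within 1 family. The stretches are from RefSeq (GRCm38.p6), 5′ to 3′ on the strand of the gene, taken from the 250 bases before an annotated start and reduced to the part outside GENCODE M21 exons. They lie at chr11:98022635-98022877 on the minus strand for Cacnb1, chr2:14823842-14824025 on the plus strand for Cacnb2 and chr15:98634568-98634766 on the plus strand for Cacnb3. Capitals mark matches, on either strand, to ACGTG (hypoxia response element core), to its variant GCGTG, to TGACNNNGC (antioxidant response element core), to GGGCGG (GC box), to the core promoter element TATAAA and to CAGCTG (E-box).
Cacnb1: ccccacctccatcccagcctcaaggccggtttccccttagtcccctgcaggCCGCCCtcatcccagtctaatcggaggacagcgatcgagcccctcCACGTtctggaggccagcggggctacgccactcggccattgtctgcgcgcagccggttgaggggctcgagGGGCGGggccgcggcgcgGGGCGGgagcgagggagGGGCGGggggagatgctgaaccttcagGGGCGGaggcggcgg
Cacnb2: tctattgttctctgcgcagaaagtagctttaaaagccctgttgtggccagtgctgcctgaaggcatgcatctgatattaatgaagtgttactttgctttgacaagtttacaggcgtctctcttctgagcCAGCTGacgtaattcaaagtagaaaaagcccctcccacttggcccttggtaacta
Cacnb3: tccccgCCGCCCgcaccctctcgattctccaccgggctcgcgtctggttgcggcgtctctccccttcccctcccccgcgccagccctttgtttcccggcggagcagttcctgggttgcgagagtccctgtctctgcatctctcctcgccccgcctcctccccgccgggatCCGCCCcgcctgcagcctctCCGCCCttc
In the whole windows of 250 bases, Cacnb1 held 5 GC boxes and 1 ACGTG, Cacnb3 held 3 GC boxes, and Cacnb2 held 1 E-box. Each of these genes has a further annotated start with other contents. For Cacnb2 the window at chr2:14604056-14604305 (plus strand), which lies within an exon, held 1 GC box, 1 GCGTG and 1 E-box. Those of Cacnb1 at chr11:98018373-98018622 (minus strand) and of Cacnb3 at chr15:98632078-98632327 (plus strand) held none of these motifs, so the contents differed between starts of a gene as well as between genes. Of the windows of the same length before 32851 annotated starts of all genes, 32.7% held a GC box, 16.6% ACGTG, 28.2% GCGTG, 10.2% TGACNNNGC, 12.4% TATAAA and 13.0% the E-box. No match overlapped another in the printed stretches. Which starts were used in these ventricles is not known from counts per gene, and a match is a description only.

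The α2δ subunits, which sit outside the membrane and raise the number of channels at the surface, were not called. Cacna2d1, the form of heart and skeletal muscle, had 85.6, 87.7, 77.5 and 72.5 CPM in NAE1CKO libraries, against 75.4, 78.2, 72.4 and 66.0 CPM in CTL libraries. The ranges overlapped, with a log2 fold change of 0.15 (SE 0.0733, adjusted p = 0.14 by edgeR). With the title number as a block the adjusted p was 0.0394, and without KO-453-7 it was 0.0462. Cacna2d2 had 33.7 ± 6.79 CPM in NAE1CKO and 40.7 ± 11.5 CPM in CTL (SD, n = 4 each) and a log2 fold change of −0.28, with exons that overlap Gm17141 on the other strand. Cacna2d1 made up 70.6% ± 5.11 of α2δ counts in NAE1CKO and 64.7% ± 5.25 in CTL, with overlap.

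γ subunits were near or below the limit of these libraries, and none of the 10 IDs could be tested. Cacng4, one of the forms found in neurons, was the most abundant, with 32 counts in NAE1CKO and 41 in CTL and a ratio of 0.671 (95% exact interval 0.409 to 1.09). Cacng2, Cacng8 and both IDs of Cacng6 and of Cacng7 had 0 counts in all 8 libraries, which allows up to 0.0223 CPM each. Whether reads were split or lost between both IDs of Cacng6 or of Cacng7 in the authors' counting is not known. Cacng1, the γ subunit of skeletal muscle, had 4 counts in NAE1CKO and 2 in CTL, Cacng3 had 4 and 5, and Cacng5 had 2 and 1. Intervals and limits of this kind cover counting error only.

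The sodium channel β subunits Scn2b and Scn3b were under 3 CPM in each library and were not called, with log2 fold changes of 0.32 (SE 0.285) and 0.12 (SE 0.264). Scn4b, whose product contributes to resurgent current and rises in the heart after birth, had 1, 0, 0 and 2 counts in NAE1CKO libraries, against 6, 2, 6 and 4 counts in CTL libraries. The ratio of its summed counts, adjusted for library size, was 0.143 (95% exact interval 0.0271 to 0.491). This gene was left out by the filter on low counts and was called lower by edgeR once that filter was dropped, at a depth of 3 counts in NAE1CKO and 18 in CTL.

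The remaining members could not be compared at this depth. Scn2a had 20 counts in NAE1CKO and 17 in CTL (ratio 1.01, 95% exact interval 0.504 to 2.06), Scn8a had 11 and 16 (0.591, 0.248 to 1.36), and Cacna1b, the N-type pore, had 15 and 6 (2.15, 0.788 to 6.77). All these neuronal pores have intervals that include a ratio of 1. Another 10 members, including Scn1a, Scn9a, Scn11a, Cacna1f, Cacna1i, Cacna2d3 and Cacna2d4, had 1 to 9 counts in all 8 libraries together.

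Summed over the members, calcium channel genes had 767 to 860 CPM in NAE1CKO and 1001 to 1119 CPM in CTL, with no overlap. This sum follows Cacna1c for the most part, and no test was made on it.

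**Figure D4:**
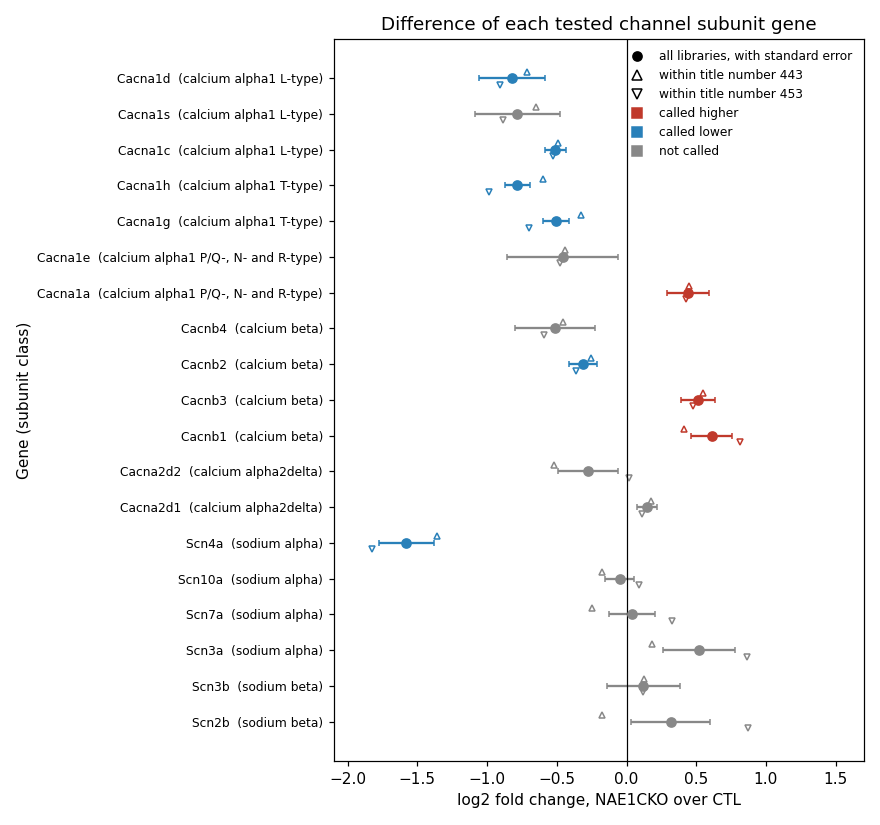
Log2 fold change (NAE1CKO over CTL) of 19 of the tested members by subunit class, with the standard error of the edgeR fit (circles and bars) and the fold changes within the hearts titled KO-443 and WT-443 (upward triangles) and those titled KO-453 and WT-453 (downward triangles), 2 libraries per group in each. Called pores of the L-type and T-type lie left of 0, Cacnb1 and Cacnb3 right of it, and Scn4a is farthest left at −1.58.

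Titles in both groups carry either of a pair of numbers (as in KO-443-3 and KO-453-6), and the labels do not say what these title numbers stand for, so the differences were also taken within each. Each of the 9 called members had the same direction within both. The calls were made on these same libraries, so the shared direction is no separate support for them. Cacna1h had a log2 fold change of −0.60 between the KO-443 and WT-443 hearts and −0.98 between the KO-453 and WT-453 hearts, and for Cacna1g these were −0.33 and −0.70. The test of the interaction gave an unadjusted p of 0.00951 for Cacna1h and 0.0242 for Cacna1g, with adjusted p of 0.393 and 0.473 by edgeR. They were the only 2 of 21 tested members at an unadjusted p under 0.05, a share similar to the 1307 of 13622 genes tested. Over all genes the interaction called 0 by edgeR, and no other tool was run on it.

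Genes whose products bind or regulate these channels were read beside the members, from a list of 31 of which 28 were tested. Of these, 5 were higher in NAE1CKO (17.9%, against 18.6% of all genes) and 8 were lower (28.6%, against 17.6%), with a median log2 fold change of −0.09. Sodium channel partners were higher for 1 (Pkp2) and lower for 6 of 14 tested, and calcium channel partners were higher for 4 and lower for 2 of 14. The count of 5 higher was 3 without KO-443-3, without KO-443-5, without WT-453-3 or without WT-453-5.

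Ank2, the ankyrin that anchors ion transporters and channels in the cardiomyocyte membrane, had 127, 138, 136 and 116 CPM in NAE1CKO libraries, against 201, 218, 231 and 215 CPM in CTL libraries. It fell with no overlap, by a log2 fold change of −0.74 (SE 0.0668, adjusted p = 6.78e-06 by edgeR). Fgf14, an intracellular factor that binds the tail of sodium channels, had 0.485, 0.472, 0.782 and 0.606 CPM in NAE1CKO libraries, against 1.13, 1.17, 1.25 and 1.12 CPM in CTL libraries, with a log2 fold change of −0.999 (adjusted p = 0.0082). Ank3, Fgf13 and Gpd1l, also sodium channel partners, were lower by less, with log2 fold changes of −0.26 to −0.42.

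On the calcium channel side, Tmem37, a protein related to the γ subunits, had 3.50, 3.31, 3.73 and 3.64 CPM in NAE1CKO libraries, against 1.95, 1.97, 1.53 and 1.45 CPM in CTL libraries. It rose with no overlap, by a log2 fold change of 1.03 (SE 0.166, adjusted p = 0.00049 by edgeR). Stac2, an adaptor of L-type channels, had 2.42, 2.15, 1.56 and 2.76 CPM in NAE1CKO libraries, against 1.57, 0.799, 0.736 and 0.562 CPM in CTL libraries. Its groups touched at KO-453-6 and WT-443-7, and the log2 fold change was 1.26 (SE 0.3, adjusted p = 0.00602 by edgeR). Ahnak and Cachd1 were also higher, Calm3 and Akap7 were lower, and the small GTPases that restrain calcium channels, Rrad, Gem and Rem1, were not called.

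**Figure D5:**
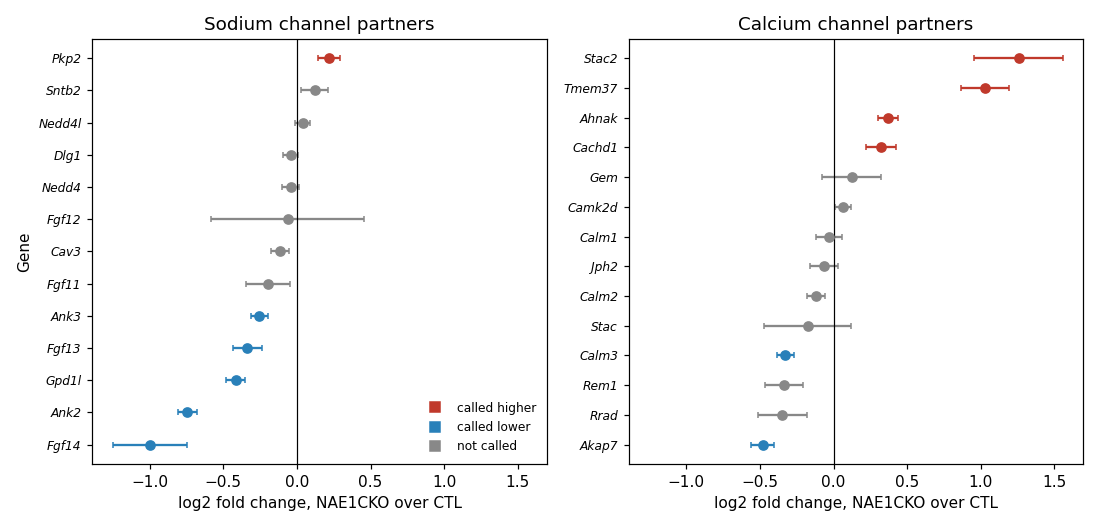
Log2 fold change (NAE1CKO over CTL) with the standard error of the edgeR fit for 13 sodium channel partners (left) and 14 calcium channel partners (right), coloured by call. Fgf14 and Ank2 are lowest at −0.999 and −0.74, and Stac2 and Tmem37 highest at 1.26 and 1.03.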

How the data were processed

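Polyadenylated RNA of 4 NAE1CKO and 4 CTL ventricles was analysed from the raw counts per Ensembl gene that the authors deposited. In the submitters' processing notes, STAR 2.0.4b is the aligner listed and featureCounts 1.4.5 (Subread) the counter. Build, annotation and strandedness of the counts were not given in the sources used here. There were 41264 lines for 40690 genes, of which 574 lines repeated a gene with identical counts and were dropped. Groups were taken from the titles and the genotype labels. Replicates differed by more than sampling noise (chi-square per gene 4.06 to 67.9), so each counted as 1 sample. Pairs that included WT-453-5 gave 60.2 to 67.9, and the other pairs gave 4.06 to 16.7. The study calls the samples biological replicates. The labels give ventricle as the tissue, and one tag also names cardiomyocyte, but the libraries were read as whole ventricle.

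Counts were filtered with filterByExpr, scaled by TMM and tested with edgeR 4.0.16 (quasi-likelihood, robust) in R 4.3.3, with Benjamini-Hochberg adjustment over 13622 genes. The test was tried on simulated data first. CPM per kb used the exon length of GENCODE M21 (GRCm38), which held 40340 of the genes and 40 of the 42 members, and served for names, positions and exon overlaps. RefSeq promoter windows were found for 30 members. Shares, ratios and sums are descriptions without a test. Low counts were compared by exact binomial intervals (scipy).

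Alternatives were RLE scaling, library size alone, DESeq2 1.42.0, limma-voom (limma 3.58.1), no filter, 1 CPM in 4 libraries, no robust estimation, the title number as a block, a fold above 1.5, and leaving out each library. A fit that left out Gm42418 was chosen after seeing the data. The members, lists and tests were chosen with earlier results of these data known. Some members and list genes are counted but not reported here by name. The other members that were called, and the most abundant of these in each calcium channel class, have their values in each library, and partner genes are named with values where called with an absolute log2 fold change of at least 0.58. The other partner genes named were chosen after their calls were seen.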

Additional observations from a re-analysis of the deposited data

Results flagged for a closer look

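Cacnb3 had 18.2 CPM in CTL library WT-453-3, against 13.5, 13.7 and 14.2 CPM in the other CTL libraries. The gap to the next value, divided by the range of the group, was above Dixon's critical value for 4 values. It was the only such case among 42 groups of the tested members. Chance alone flags about 1 group in 20, so 1 case among 42 is not more than chance gives. Cacnb3 stayed lower in WT-453-3 than in each NAE1CKO library.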

How the results depend on the processing

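Cacna1c, Cacna1g, Cacna1h, Scn4a, Cacnb1 and Cacnb3 kept their calls and directions under all 17 alternative fits, and no called member changed sign. Cacna1d, Cacna1a and Cacnb2 lost their calls in the fits given with them in the report. With a fold above 1.5 required, 1 member was higher and 3 were lower, 2 partner genes were higher and 2 lower, and 996 genes in all were higher and 758 lower. With library size alone, which moved the median log2 fold change of all genes to 0.08, 3177 genes were higher and 1532 lower (67.5% of the calls were higher, and 51.4% under TMM). Leaving out 1 library at a time gave 2 to 4 members higher, 4 to 7 lower, and 3 to 5 partner genes higher. With the title number as a block, all 9 calls were kept and Cacna1s and Cacna2d1 were added. The labels do not say that this number pairs the hearts. The causes of these shifts were not tested. Depth limits the members under about 10 counts, for which no difference could be measured.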
